A study of Mus musculus with 32 samples.

Results

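E2F factors are DNA-binding proteins that switch the genes of DNA replication and cell-cycle entry on or off, and the pocket proteins Rb1, p107 and p130 bind and silence them until cyclin-dependent kinases release them. E2f1, E2f2 and E2f3 are known as activators, E2f4 and E2f5 as repressors that work with p107 and p130, and E2f7 and E2f8 as atypical repressors that bind DNA without a DP partner or a pocket protein. In adult neural stem cells (NSCs), which move between quiescence and the cell cycle, the balance of these proteins is known to bear on whether a cell divides.

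The 10 genes E2f1, E2f2, E2f3, E2f4, E2f5, E2f7, E2f8, Rb1, Rbl1 (p107) and Rbl2 (p130) were taken by symbol from the 23035 genes of the footprint tables, and all 10 were found and passed the filter on low counts in footprints at both times. The cells were NSCs grown ex vivo from the ventricular-subventricular zone (vSVZ) of C57BL/6 mice aged 8 to 12 weeks, which the methods give as males. They received vehicle (albumin in buffered saline) or IFN-β, a type-I interferon, for 2 h or 14 h, and all cultures were given cycloheximide just before lysis. Ribo-Seq reads the stretches of mRNA that ribosomes protect, and these footprints were counted in the coding sequence (CDS), while total RNA from the same lysates was counted over the whole gene. Each of the 4 groups had 4 cultures and so 8 libraries, 32 in all, with the culture numbers 2, 3, 5 and 6 in the 2 h groups and 1, 2, 3 and 4 in the 14 h groups. The long and the short exposure had vehicle cultures of their own. The methods describe biological replicates as different mice or as cultures from different mice, and the labels do not say which holds for each number.

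Footprint libraries held 2956297 to 10505108 counts, of which 602 to 3614 fell on the 10 genes. Total RNA libraries held 3992402 to 7877753 counts at 2 h and 1370008 to 2737111 at 14 h, where a single gene took up to 39.3% of a vehicle library. The NSC marker sum was 10500 to 12300 CPM (counts scaled to library size) in footprints after 14 h of IFN-β and 11400 to 13300 CPM in vehicle. As a check of the labels, all 7 interferon-stimulated control genes were higher in footprints after IFN-β at both times (median log2 fold change 6.87 at 2 h, 11.33 at 14 h). The 2 h cultures numbered 3 stood apart from the other 2 h cultures under both treatments, and the 2 h calls are given with and without this pair of cultures.

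Of the 7 genes with a RefSeq promoter entry (GRCm38.p6), 4 carry the letters of an E2F site near a start, and a 30-base window of each is shown because factors of this family are known to act on each other's promoters. The letters searched were TTTCCCGC, TTTCGCGC, TTTGCCGC and TTTGGCGC on both strands, from 250 bases before to 50 after a start. They occur in 744 of 32851 such windows in the genome, or 2.26%. This share counts windows and not genes, and E2f2 and E2f3 each also have a window without the letters. Each sequence is written 5′ to 3′ on the strand of its gene, with the E2F letters in capitals.
E2f2, chr4:136172294-136172323: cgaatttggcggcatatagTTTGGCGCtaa
E2f3, chr13:29986056-29986085: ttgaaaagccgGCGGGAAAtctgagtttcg
E2f7, chr10:110745230-110745259: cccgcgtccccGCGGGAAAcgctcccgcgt
Rbl1, chr2:157204534-157204563: aagaaggcgatTTTCGCGCgctttgtcgcg
The letters lie on the strand of the gene in E2f2 and Rbl1 and on the other strand in E2f3 and E2f7. They begin 198 bases before the start in E2f7, 18 before it in Rbl1, 11 before it in E2f3 and 40 after it in E2f2. The windows of E2f1, E2f8 and Rbl2 do not hold these letters, and E2f4, E2f5 and Rb1 had no entry in the table used. A second set of letters, TTTGAA, known from the cell-cycle element that the MuvB complex reads, occurs in a window of E2f2, E2f3, E2f8 and Rbl2 and in 17.9% of all windows. A match describes the letters and was not tested as a site.

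In vehicle cultures at 14 h, footprints per kb of CDS were densest on E2f4, with 34.2 ± 1.98 CPM per kb (SD, n = 4), and on E2f3, with 32.1 ± 2.98 CPM per kb. Rbl1 followed with 25.9 ± 2.00 CPM per kb, then E2f5 with 18.4 ± 1.93 and Rb1 with 17.3 ± 1.22 CPM per kb. E2f8 stood at 14.2 ± 1.56 CPM per kb and E2f1 at 10.7 ± 1.21, and Rbl2, E2f7 and E2f2 lay between 8.97 and 9.83 CPM per kb. In this order the neighbours E2f4 and E2f3, E2f5 and Rb1, E2f1 and Rbl2, and E2f7 and E2f2 differed by less than the larger of their SDs. At 2 h the vehicle order began with E2f3 at 26.0, E2f4 at 25.7 and E2f5 at 24.5 CPM per kb and again ended with E2f2, at 6.41 CPM per kb. After 14 h of IFN-β the density on E2f4 was 31.9 ± 2.55 CPM per kb, about that in vehicle, while E2f3 stood at 15.4 ± 1.28 and E2f7, the lowest of the 10, at 1.68 ± 0.201 CPM per kb. CPM are relative to the other footprints of a library. Neither these densities nor the fold changes below can therefore show a change common to all genes. The paper reports a marked drop of global protein synthesis after long exposure to IFN-β. Absolute footprints per cell were not measured.

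After 14 h of IFN-β, footprints fell on 8 of the 10 genes and rose on none. The falls were steepest for the atypical repressors E2f7 (5.32-fold) and E2f8 (3.42-fold) and the activator E2f2 (3.22-fold), and about as large as each other for E2f1, E2f3 and Rbl1 (2.24-fold, 2.08-fold and 2.22-fold). Rb1 and E2f5 fell by little, and E2f4 and Rbl2 passed no test. Of all 12113 genes tested, 26.3% were called lower and 26.2% higher in this comparison (edgeR quasi-likelihood test, Benjamini-Hochberg adjusted p under 0.05), so a call by itself was common. The median log2 fold change of the 10 genes was -1.11, and that of all genes tested was 0.00. In these bulk cultures, footprints alone cannot tell apart fewer cells of a type, less RNA per cell and fewer ribosomes per RNA.

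E2f7 (ENSMUSG00000020185) had 26.0, 22.8, 24.9 and 25.8 CPM in the vehicle cultures 1 to 4 and 4.35, 4.73, 5.40 and 4.13 CPM in the IFN-β cultures. The groups lie far apart, with the lowest vehicle culture well above the highest IFN-β culture. The log2 fold change was -2.41 ± 0.12 (SE, n = 4 against 4, edgeR adjusted p = 2.15e-09). E2f8 (ENSMUSG00000046179) had 36.5, 31.3, 41.0 and 37.8 CPM in vehicle and 10.4, 9.61, 14.3 and 8.81 CPM in IFN-β cultures. Culture 3 was the highest of each group, and the groups did not overlap. Its log2 fold change was -1.77 ± 0.14 (edgeR adjusted p = 2.72e-07). E2f7 and E2f8 together are known to hold back E2F1 targets late in S phase.

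Among the activators, E2f2 (ENSMUSG00000018983) had 13.2, 10.4, 13.4 and 10.6 CPM in vehicle and 2.34, 3.16, 4.35 and 4.03 CPM in IFN-β cultures, with 7 to 37 counts per IFN-β library. No IFN-β culture reached the lowest vehicle culture, and the log2 fold change was -1.69 ± 0.17 (edgeR adjusted p = 4.1e-06). E2f1 (ENSMUSG00000027490), the founding member of the family, had 16.9, 12.9, 15.8 and 14.6 CPM in vehicle and 6.02, 7.89, 6.15 and 6.31 CPM in IFN-β cultures. Culture 2 was the lowest in vehicle and the highest in IFN-β, and the groups still did not overlap (log2 fold change -1.16 ± 0.14, edgeR adjusted p = 1.2e-05). E2f3 (ENSMUSG00000016477) had 39.2, 45.8, 49.2 and 44.1 CPM in vehicle and 20.8, 19.4, 21.6 and 23.6 CPM in IFN-β cultures. All 4 IFN-β cultures lay within a narrow range below every vehicle culture (log2 fold change -1.06 ± 0.09, edgeR adjusted p = 6.16e-07).

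The 3 pocket proteins ranged from a clear fall to no call, and the differences between them were not tested. Rbl1 (ENSMUSG00000027641), whose product p107 is known to be abundant in cycling cells, had 85.1, 77.6, 90.4 and 77.2 CPM in vehicle and 31.8, 35.4, 44.9 and 34.7 CPM in IFN-β cultures. The groups were widely separated, with a log2 fold change of -1.15 ± 0.09 (edgeR adjusted p = 4.16e-07). Rb1 (ENSMUSG00000022105), the retinoblastoma protein, had 51.0, 46.4, 49.8 and 43.5 CPM in vehicle and 39.1, 40.2, 38.0 and 34.8 CPM in IFN-β cultures. Its groups came close without overlapping, and the log2 fold change was -0.33 ± 0.08 (edgeR adjusted p = 0.00266). Rbl2 (ENSMUSG00000031666), whose product p130 is known from quiescent cells, had 34.7, 32.6, 33.9 and 32.7 CPM in vehicle and 32.8, 27.8, 32.7 and 31.1 CPM in IFN-β cultures. The groups overlapped, and the log2 fold change of -0.11 had a 95% interval from -0.27 to 0.05 (edgeR adjusted p = 0.238).

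E2f4 (ENSMUSG00000014859), the repressor known to sit with p130 on promoters of resting cells, had 40.9, 45.7, 40.6 and 41.1 CPM in vehicle and 39.1, 43.0, 39.2 and 35.4 CPM in IFN-β cultures. The groups overlapped, and the log2 fold change was -0.11 with a 95% interval from -0.28 to 0.06 (edgeR adjusted p = 0.251). E2f5 (ENSMUSG00000027552), its relative, had 17.8, 20.9, 16.3 and 19.1 CPM in vehicle and 14.7, 17.4, 14.7 and 14.4 CPM in IFN-β cultures. IFN-β culture 2 lay above vehicle culture 3, so these groups overlapped too, and the log2 fold change of -0.28 ± 0.11 passed narrowly (edgeR adjusted p = 0.0446). That call was lost under DESeq2 (adjusted p = 0.0921) and without IFN-β culture 1 (0.0717), 3 (0.101) or 4 (0.129) or vehicle culture 2 (0.158) or 4 (0.0948).

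Every IFN-β culture lay below every vehicle culture for 7 of the 10 genes at 14 h, namely E2f1, E2f2, E2f3, E2f7, E2f8, Rb1 and Rbl1, against 23.7% of all genes tested. Within the 4 same-numbered pairs, all 10 genes were lower after IFN-β, as were 33.2% of all genes tested, with ratios of IFN-β to vehicle from 0.16 to 0.217 for E2f7 and from 0.86 to 0.965 for E2f4. Cell type markers moved at the same time. Of the 8 NSC markers tested, 3 fell, Fabp7 with a log2 fold change of -0.40, Slc1a3 with -0.36 and Nr2e1 with -0.47, and with the replicate number as a block 4 were lower, Pax6 added (-0.30), and Egfr was higher (0.09). Of all genes, 26.3% were called lower without the block, and 31% lower and 31.8% higher with it. The oligodendrocyte sum was 219 to 298 CPM after IFN-β and 99 to 127 CPM in vehicle, nearly all of it Cnp, and the microglia sum was 21.2 to 26.7 against 5.98 to 8.80 CPM, nearly all of it P2ry12, with Aif1 and Cx3cr1 at 0 in every library. The neuronal sum was 51.9 to 65.9 against 49.3 to 57.2 CPM, with Tubb3 higher (log2 fold change 0.23, edgeR adjusted p = 0.0295), and the endothelial sum 5.35 to 6.45 against 4.44 to 5.85 CPM. The part of these markers in the falls was not tested.

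**Figure D1:**
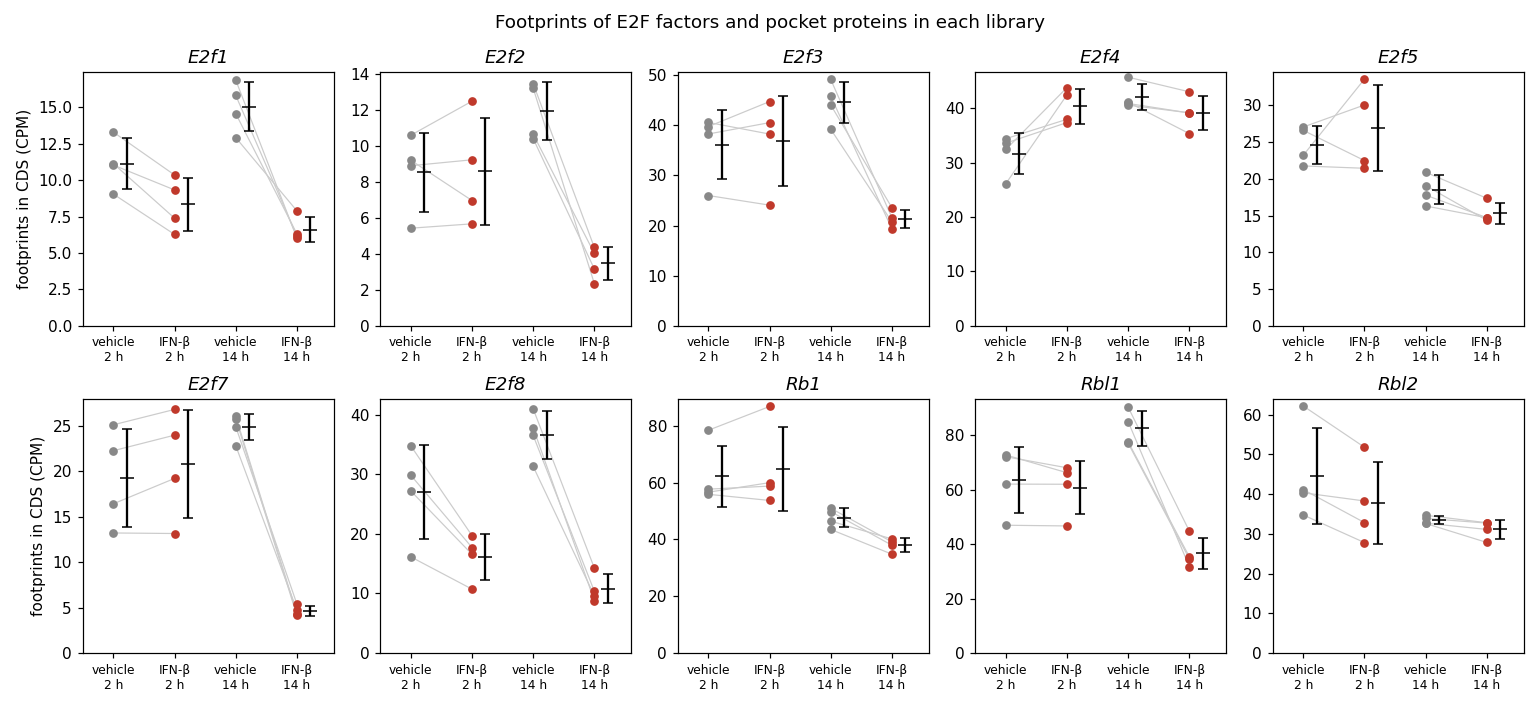
Footprints in the CDS of the 10 genes in CPM (each panel's axis starts at 0), with a point for each culture in grey for vehicle and red for IFN-β. Thin lines join same-numbered cultures, and black marks give the mean ± SD (n = 4). At 14 h the groups separate for E2f1, E2f2, E2f3, E2f7, E2f8, Rb1 and Rbl1, and at 2 h every line falls for E2f1, E2f8, Rbl1 and Rbl2 and every line rises for E2f4.

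After 2 h of IFN-β, none of the 10 genes passed the test without pairing, and 2 were below an unadjusted p of 0.05, E2f8 lower and E2f4 higher (DESeq2 also called 0). Of all 12104 genes tested, 7.25% were called, 2.01% lower and 5.25% higher. Deviations of same-numbered footprint cultures from their group means went together, and with the number as a block E2f1, E2f8 and Rbl2 were lower and E2f4 higher. That fit called 13.4% of all genes lower and 15.9% higher, so 3 lower and 1 higher of 10 is not far from the background. In all 4 pairs 4 of the 10 genes were lower, E2f1, E2f8, Rbl1 and Rbl2, against 22% of all genes, and 1 was higher, E2f4, against 21.4%. At 2 h the median log2 fold change of the 10 genes was 0.02, and that of all genes was -0.02.

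Cell type markers were called with the block at 2 h as well. Of the 8 NSC markers, Egfr (log2 fold change -0.54), Nr2e1 (-0.86) and Pax6 (-0.50) were lower and Vim was higher (0.32). The oligodendrocyte marker Cnp was lower (-0.24), and the endothelial receptor Kdr (1.36) and the neuronal tubulin Tubb3 (0.53) were higher. Without the block Nr2e1 alone among the tested markers was called (-0.86, edgeR adjusted p = 0.0453). The marker sums overlapped between IFN-β and vehicle, at 13800 to 17700 against 14000 to 16900 CPM for NSCs, 197 to 371 against 217 to 491 for oligodendrocytes, 57.1 to 115 against 49 to 78.3 for neurons, 6.88 to 23.6 against 3.2 to 9.23 for endothelium and 1.01 to 3.12 against 0.556 to 4.29 CPM for microglia. Their part in the 2 h values of the 10 genes was not tested.

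The 2 h comparison was also fitted without both cultures numbered 3, a choice made after the data were seen. E2f8 was then called without a block (log2 fold change -0.77 ± 0.12, edgeR adjusted p = 0.000948), while E2f1 (-0.39, 0.159), E2f4 (0.24, 0.112) and Rbl2 (-0.23, 0.264) were not. With the block all 4 calls were made without that pair too, with edgeR adjusted p = 9.12e-09 for E2f8, 0.0389 for E2f1, 0.0334 for E2f4 and 0.0337 for Rbl2. Of all genes, 5.36% were called lower and 8.69% higher without the pair, and 12% and 14.6% with the block as well.

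E2f8 had 29.8, 16.1, 27.2 and 34.7 CPM in the 2 h vehicle cultures 2, 3, 5 and 6 and 17.7, 10.7, 16.6 and 19.7 CPM in the IFN-β cultures. Culture 3 was the lowest under both treatments, which made the groups overlap, but each IFN-β culture held 0.567 to 0.665 of its vehicle partner. The log2 fold change was -0.73 ± 0.25 (edgeR adjusted p = 0.142), and with the block -0.74 ± 0.09 (edgeR adjusted p = 5.3e-07). Without vehicle culture 3 it was -0.91 and was called without a block as well (edgeR adjusted p = 0.0144).

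E2f4 moved the other way. It had 33.6, 26.1, 34.4 and 32.4 CPM in the 2 h vehicle cultures and 37.4, 42.5, 38.0 and 43.8 CPM in the IFN-β cultures. Every IFN-β culture lay above every vehicle culture, which held for 1 of the 10 genes and for 7.77% of all genes tested. The log2 fold change was 0.35 ± 0.11 (edgeR adjusted p = 0.105), and with the block 0.34 ± 0.09 (edgeR adjusted p = 0.00323).

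E2f1 had 13.3, 9.04, 11.03 and 11.1 CPM in vehicle and 10.3, 6.27, 9.32 and 7.39 CPM in IFN-β cultures at 2 h. The groups overlapped, yet all 4 pairs were lower, at 0.664 to 0.845 of vehicle, and the log2 fold change of -0.41 was called with the block (edgeR adjusted p = 0.0203, against 0.323 without it). Rbl2 had 34.7, 62.2, 40.3 and 41.1 CPM in vehicle and 27.8, 51.8, 38.3 and 32.8 CPM in IFN-β cultures. Culture 3 was the highest under both treatments, and the pair ratios of 0.798 to 0.949 gave a log2 fold change of -0.24 with the block (edgeR adjusted p = 0.0115, against 0.706 without it).

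The remaining genes passed neither fit at 2 h and had log2 fold changes from -0.06 for Rbl1 to 0.12 for E2f5 and 95% intervals that reach from -0.61 to 0.64 for E2f2. E2f7, which fell most at 14 h, had 25.1, 13.2, 16.4 and 22.3 CPM in vehicle and 26.8, 13.2, 19.2 and 23.97 CPM in IFN-β cultures. Its pairs lay at 0.995 to 1.17 of vehicle. The cultures numbered 3 had the lowest footprints on E2f1, E2f2, E2f3, E2f7, E2f8 and Rbl1 and the highest on Rb1 (78.4 CPM in vehicle, 86.8 in IFN-β) and Rbl2, and their oligodendrocyte marker sums, 491 and 371 CPM, were also the highest of the 2 h cultures. Their NSC (14000 and 13800 CPM), neuronal (49 and 57.1), endothelial (3.2 and 6.88) and microglia (0.556 and 1.01) sums were the lowest of each 2 h group. The part of these markers in the values of culture 3 was not tested.

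**Figure D2:**
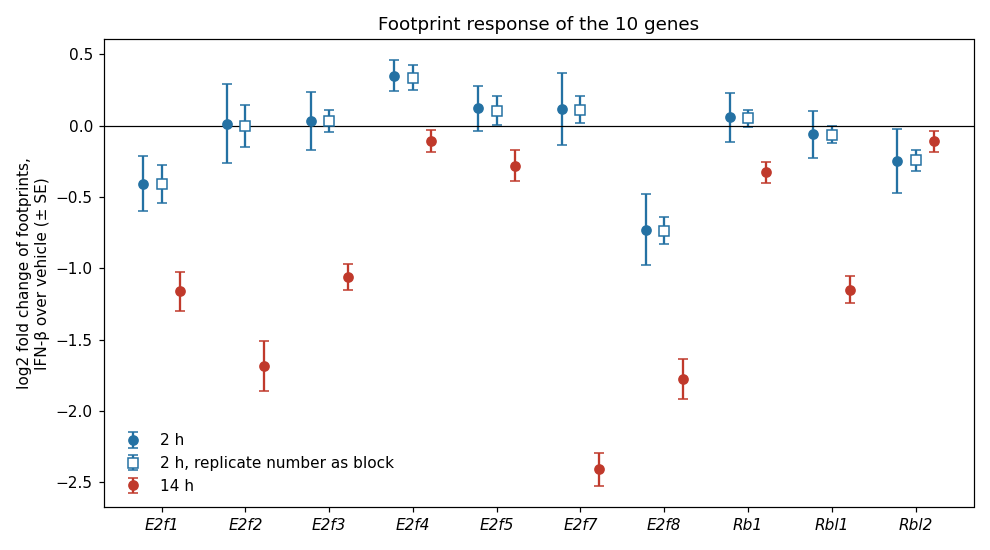
Log2 fold change of footprints on each of the 10 genes, IFN-β over vehicle, with bars of 1 SE (n = 4 against 4, edgeR). Blue circles are 2 h, open blue squares 2 h with the replicate number as a block, and red circles 14 h. E2f8 and E2f1 lie below 0 at both times, E2f4 above 0 at 2 h and near it at 14 h, and E2f7 near 0 at 2 h and at -2.41 at 14 h.

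A direct comparison of the 2 h and 14 h responses, fitted to all 16 footprint libraries with a term for treatment by time, called 15.5% of 12508 genes lower and 15.4% higher. The response was lower at 14 h than at 2 h for 7 of the 10 genes, E2f1, E2f2, E2f3, E2f4, E2f7, E2f8 and Rbl1. E2f7 led with a difference of -2.52 ± 0.31 on the log2 scale (edgeR adjusted p = 1.93e-05), followed by E2f2 with -1.71 ± 0.35 (edgeR adjusted p = 0.00151). Rbl1 and E2f3 both stood at -1.09, and E2f8, already lower at 2 h with the block, at -1.03 ± 0.31 (edgeR adjusted p = 0.0193). E2f4 differed by -0.44 ± 0.14 (edgeR adjusted p = 0.0208). E2f1 differed by -0.76 ± 0.23 (edgeR adjusted p = 0.0218), a call lost without the 2 h IFN-β culture 2 (edgeR adjusted p = 0.0565). With the block 9 of the 10 were lower, against 27.5% of all genes, as E2f5 and Rb1 were added (edgeR adjusted p = 0.033 and 0.000614), and Rb1 also without the 2 h vehicle culture 3 (edgeR adjusted p = 0.039). Without both 2 h cultures numbered 3, 8 of the 10 were lower, against 21.2% of all genes, Rb1 added with -0.33 (edgeR adjusted p = 0.0154), and with the block 8 as well, against 26.9%, E2f5 then not called (0.133). Rbl2, with 0.15 ± 0.25, was not called (edgeR adjusted p = 0.678).

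Total RNA held few reads of most of these genes. The 14 h vehicle culture 3 stood apart in total RNA from the other 14 h vehicle cultures. A chi-square of counts per degree of freedom was 225 to 273 in its pairs and 6.75 to 37.9 in the others. At 14 h, E2f1, E2f2, E2f7 and E2f8 had 0 to 7 counts per library and were not tested, whereas Rb1 had 35 to 232 and Rbl1 57 to 264 counts. None of the 6 tested genes was called at 14 h, where 6.3% of 7520 genes were, and none of 7 at 2 h, where 0.799% of 11639 genes were. These shares fell to 2.4% at 14 h without IFN-β culture 1 and to 0.273% at 2 h without IFN-β culture 2. One gene at each time was below an unadjusted p of 0.05, E2f3 at 14 h and E2f5 at 2 h.

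E2f3 had 7.61, 25.6, 10.5 and 8.14 CPM of total RNA in the 14 h vehicle cultures 1 to 4 and 4.73, 4.59, 5.33 and 6.78 CPM in the IFN-β cultures. Counts ran from 7 in vehicle culture 3 to 49 in vehicle culture 2. All IFN-β cultures lay below all vehicle cultures, as for 5.74% of genes tested, and the log2 fold change was -1.28 ± 0.39 (edgeR adjusted p = 0.0683). It was called under DESeq2 (adjusted p = 0.0396) and in edgeR with no filter on low counts (0.00567), with the block (0.0441) and without vehicle culture 1 (0.027) or 4 (0.0421). Without vehicle culture 2, the highest, the log2 fold change was -0.65 (edgeR adjusted p = 0.314). Rbl1 had 95.7, 85.3, 85.2 and 68.4 CPM in vehicle and 73.1, 47.6, 81.5 and 47.9 CPM in IFN-β cultures. The groups overlapped, and the log2 fold change of -0.41 had a 95% interval from -0.88 to 0.05 (edgeR adjusted p = 0.33).

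Translation efficiency (TE), the change in footprints beyond that in total RNA, was tested as the interaction of library kind and treatment at an adjusted p under 0.1. The fit had no term for the lysate that a footprint and a total RNA library share. It treated all libraries as independent, so its SEs and p-values leave out this pairing. At 14 h TE was lower for 2 of the 10 genes, against 3.91% of 13447 genes called lower, and at 2 h for none, against 0.815% called either way. Rbl1 differed by -0.80 ± 0.23 on the log2 scale (edgeR adjusted p = 0.0425). That call was lost without IFN-β culture 1 (edgeR adjusted p = 0.151) or vehicle culture 3 (0.114) or 4 (0.108). Vehicle culture 3, which stood apart in total RNA, held 57 Rbl1 counts there. Of the pair called, Rbl1 alone had also passed the filter in total RNA. E2f2 entered through its footprints and had only 2 to 7 total RNA counts per library, so its value of -1.55 ± 0.46 (edgeR adjusted p = 0.0443) cannot be read as a change in TE. Its call was lost without vehicle culture 1 (edgeR adjusted p = 0.141) or IFN-β culture 2 (0.163) or 4 (0.126). E2f7, with the steepest fall in footprints, had a TE difference of -1.79 ± 0.87 (edgeR adjusted p = 0.282), and at 0 to 5 total RNA counts per library no difference in TE was detectable at this depth.

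Genes of the proteins that work with this family were also called in 14 h footprints. Of the partners, the DP subunit Tfdp1 fell (log2 fold change -0.92 ± 0.06, edgeR adjusted p = 3.12e-08) and Tfdp2 fell by less (-0.26, edgeR adjusted p = 0.027), while E2f6, a repressor that needs no pocket protein, had -0.14 (edgeR adjusted p = 0.252). Tfdp2 was lower at 2 h too, and by more (log2 fold change -0.79 ± 0.16, edgeR adjusted p = 0.014). E2f6 was lower at 2 h with the block (-0.31, edgeR adjusted p = 0.0145), as were 13.4% of all genes. The response of Tfdp2 was higher at 14 h than at 2 h without the block, as for 15.4% of all genes. With the block it was higher too (0.52, edgeR adjusted p = 0.00035), as for 28% of all genes. Of the MuvB complex, which joins p130 or p107 in resting cells and B-Myb in cycling cells, and its partners, 5 of 7 fell. In this comparison 26.3% of all genes tested were called lower. B-Myb (Mybl2) fell most, with a log2 fold change of -2.48, then Foxm1 with -1.09, Lin9 with -0.81, Lin54 with -0.59 and Rbbp4 with -0.43, whereas Lin52 had -0.44 (edgeR adjusted p = 0.143) and Lin37 0.33 (edgeR adjusted p = 0.0623). With the block Lin37 was higher (0.32, edgeR adjusted p = 0.0231), as were 31.8% of all genes.

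Of the cyclins and kinases that act on pocket proteins, 6 of 9 fell and 1 rose at 14 h (median -0.56 on the log2 scale). Among all genes tested, 26.3% were called lower and 26.2% higher. The E-type cyclins, which drive entry into S phase, fell most, with log2 fold changes of -2.77 for Ccne2 and -1.44 for Ccne1, and Cdk6 rose by 0.69. With the block Ccnd3 was higher too (0.12, edgeR adjusted p = 0.031), in a fit that called 31% of all genes lower and 31.8% higher. None of the 6 tested genes of kinase inhibitors fell and 3 rose, against 26.2% of all genes called higher. These were Cdkn2b by 0.57, Cdkn2a by 0.27 and Cdkn1b by 0.22. With the block Cdkn1a was higher as well (0.13, edgeR adjusted p = 0.00478), and Cdkn2c (-0.28, 0.0212) and Cdkn2d (-0.22, 0.00899) were lower. All 24 textbook E2F targets, genes of origin licensing, replication forks and nucleotide supply, fell, with a median of -1.76 from -2.42 for Cdc6 and -2.27 for Orc1 to -0.29 for Mcm6. At 2 h none of these 24 was called (median -0.07), and with the block 3 were lower and 2 higher. That fit called 13.4% of all genes lower and 15.9% higher, so these counts are not above the background. The inhibitor Cdkn2d was higher at 2 h, by 0.68 ± 0.09 (edgeR adjusted p = 0.00193). With the block 2 of the 9 cyclins and kinases were higher at 2 h and none lower, against 15.9% of all genes higher. Cdk6 was among them (0.53, edgeR adjusted p = 0.00504). By the interaction, the response of 23 of the 24 targets was lower at 14 h than at 2 h, against 15.5% of all genes. In 14 h total RNA, 8 of the 24 were tested and 1 was lower (median -0.16), where 6.3% of all genes were called. TE at 14 h was lower for 10 of the 24 (median -1.435), against 3.91% of all genes. Of the cyclins and kinases, none of 7 tested was called in 14 h total RNA (median 0.25). TE was lower for 3 of the 9 (median -1.24). Genes not tested in total RNA entered TE through footprints and had few total RNA counts.

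**Figure D3:**
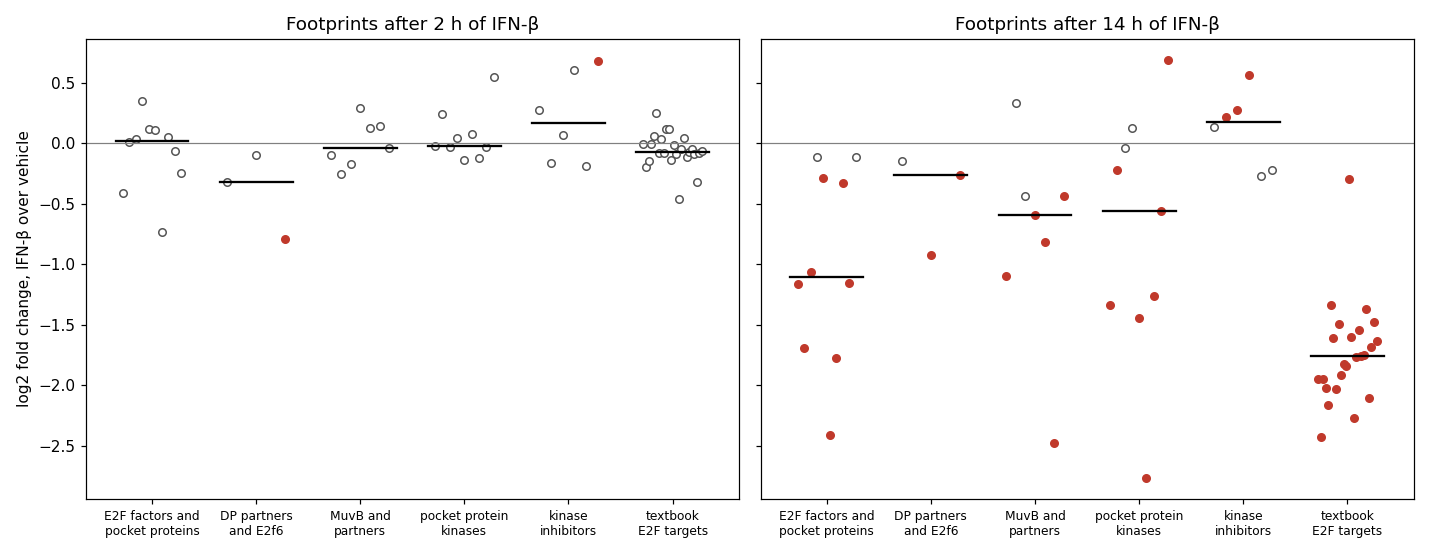
Log2 fold change of footprints, IFN-β over vehicle, for each gene of the family and of 5 related lists at 2 h (left) and 14 h (right). Red points passed an adjusted p under 0.05 (edgeR), open points did not, and black lines are medians. The 24 E2F targets centre on -0.07 at 2 h and on -1.76 at 14 h.

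Over the 16 footprint libraries, taken as log2 CPM less the vehicle mean of each time, the 3 genes of 10314 most like E2f1 were Arl6ip6, Nt5dc2 and Parpbp (Pearson r 0.966, 0.949 and 0.947). Those most like E2f8 were Wdr76, Setdb1 and Ticrr (0.974, 0.971 and 0.97). E2f4 was most like Rrp1b, Cfl2 and Med27 (0.916, 0.906 and 0.896), and Rb1 most like Nell2, Cyp46a1 and Spock2 (0.953, 0.952 and 0.937). These libraries share treatment, time and culture number, so the coefficients are a description. In GENCODE M21 (GRCm38), E2f7 lies at chr10:110745439-110787384 on the plus strand, E2f8 at chr7:48866429-48881596 on the minus strand, E2f4 at chr8:105297663-105305370 on the plus strand and Rbl1 at chr2:157145893-157204534 on the minus strand. Several of the 10 genes overlap genes on the other strand, which matters where counting ignores strand. Rbl2 shares 408 bases of CDS with Gm45464 and 72 with Aktip, Rb1 105 with Rcbtb2, E2f7 86 with 1700020G17Rik and E2f8 164 with Gm2788, and E2f1, E2f2 and E2f4 overlap none.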

How the data were processed

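The authors trimmed reads with Trim Galore 0.4.4, mapped them with Bowtie 0.12.7 to the mm10 (GRCm38) transcriptome, removed duplicates and deposited raw counts per gene, in the CDS for footprints and over the gene body for total RNA. The strand setting is not given in the sources used here. Removing duplicates of short footprints can lower the counts of abundant genes most. Symbols came from GENCODE M21 (22282 of 23035 footprint and 37693 of 39017 total RNA identifiers matched). Genes reaching 10 counts in 4 or more libraries of a comparison were tested with edgeR 4.0.16 in R 4.3.3 (TMM, quasi-likelihood test, two-sided, Benjamini-Hochberg over all genes tested), without a block. CPM values use TMM-scaled library sizes. Alternatives were DESeq2 1.42.0, total counts, no filter, the replicate number as a block, each library left out, and, added after the data were seen, both 2 h cultures numbered 3 left out. For the difference between times, the same number at 2 h and at 14 h made separate blocks. The labels do not say whether such cultures are related. The scripts were tested on simulated data. Same-numbered footprint cultures deviated together (correlations 0.473 to 0.866 at 2 h and 0.264 to 0.533 at 14 h), so the number was taken to pair them, from the data and not from the labels. In total RNA they did not (-0.658 to 0.535). Named genes were the 10 genes, all partners and MuvB genes, and of the other lists the 2 called genes with the largest rise and fall at 14 h. Ccnd3, Cdkn1a, Cdkn1b, Cdkn2c, Cdkn2d, Mcm6 and the markers were named after their values were seen. The members and lists were chosen with earlier results of these data known. Python 3.11.15 with matplotlib 3.10.9 drew the figures.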

Additional observations from a re-analysis of the deposited data

Results flagged for a closer look

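In 6 of 66 groups of 4 libraries, 40 in footprints and 26 in total RNA, 1 library lay far from the other 3 by Dixon's test, which by chance marks about 1 in 20 groups. In footprints these were E2f1 in the 14 h IFN-β culture 2 (7.89 CPM), E2f5 in the same culture (17.4 CPM), E2f4 in the 14 h vehicle culture 2 (45.7 CPM), and E2f3 (26.0 CPM) and Rb1 (78.4 CPM) in the 2 h vehicle culture 3. In total RNA it was E2f3 in the 14 h vehicle culture 2 (25.6 CPM).

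The footprint response differed between 14 h and 2 h by the interaction test for E2f1 (-0.76 on the log2 scale), E2f2 (-1.71), E2f3 (-1.09), E2f4 (-0.44), E2f7 (-2.52), E2f8 (-1.03) and Rbl1 (-1.09).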

How the results depend on the processing

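With the replicate block, 3 of the 10 genes were lower and 1 higher in 2 h footprints, and the log2 fold change of E2f2 there was -0.0025. The block changed no call of the 10 genes in 14 h footprints, where it added, of the related lists, Lin37, Ccnd3, Cdkn1a, Cdkn2c and Cdkn2d, and it added E2f5 and Rb1 to the difference between times. The block fit of 14 h footprints called 31% of all 12113 genes lower and 31.8% higher, so a call in it was common. Over the fits that leave out 1 library, 0 to 1 of the 10 were lower at 2 h (E2f8, without vehicle culture 3), 7 to 8 were lower at 14 h and 6 to 8 in the difference between times. Those fits called 0.994% to 2.4% of all genes lower at 2 h, 23.1% to 26% at 14 h and 12.9% to 19.8% in the difference. In 14 h total RNA 1 gene, E2f3, was lower under DESeq2, with no filter on low counts and with the block, and 0 to 1 were without 1 library. Of all genes, 2.83%, 1.3% and 3.1% were lower in those settings, in that order, and 0.928% to 3.12% without 1 library. In 14 h TE 1 to 2 were lower without 1 library, against 3% to 3.95% of all genes. Without both 2 h cultures numbered 3, a setting chosen after the data were seen, 1 gene was lower at 2 h, and with the block 3 were lower and 1 higher. E2f2 then had -0.0126 and E2f5 -0.0239, and with the block -0.0132 and -0.028. Scaling by total counts turned E2f2 (-0.031) and E2f3 (-0.0096) at 2 h. Leaving out 1 library, the 2 h log2 fold change ran from -0.21 to 0.16 for E2f2, -0.091 to 0.19 for E2f3, -0.032 to 0.28 for E2f7, -0.11 to 0.19 for Rb1 and -0.18 to 0.043 for Rbl1, and the difference between times of Rbl2 from -0.043 to 0.34. The cause was not tested. Low total RNA counts limit TE and total RNA for E2f1, E2f2, E2f7 and E2f8. Over all genes, the number called lower in 2 h footprints was 243, against 378 under DESeq2, 1618 with the block and 638 without both cultures numbered 3, and ran from 119 without IFN-β culture 5 to 288 without IFN-β culture 3. In the difference between times it was 1941, against 3445 with the block. In 2 h total RNA, 9 were lower and 84 higher, against 35 and 134 under DESeq2, and scaling by total counts moved the median of all genes there from 0.04 to 0.23. There 1 was lower and 29, 32 or 39 higher without IFN-β culture 2, 5 or 6. In 14 h total RNA 213 were lower and 261 higher, against 93 and 180 scaled by total counts, 66 and 105 without IFN-β culture 1, 90 and 123 without 2, 112 and 159 without 3 and 113 and 152 without 4.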
